A study of Mus musculus with 10 samples.

Results

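The 5 control lungs of a study of Hdac3, a histone deacetylase, in the fetal mouse lung are described here as a baseline at embryonic day E18.5, shortly before birth. They were 5 of the 10 lungs in the series, each hybridised to 1 Affymetrix mouse gene array. The levels of the Hdac3-deleted lungs were not used below. The controls are labelled Shhcre; control, with a strain background of C57BL/6, 129X1 and 129S6. ShhCre is a Cre recombinase driven by the regulatory sequence of Sonic hedgehog and is active in the lung epithelium. The cross joined Hdac3 fl/fl females and Hdac3 fl/+ ShhCre males, so every embryo had a floxed allele from its dam. The control label does not state the Hdac3 alleles, and a ShhCre-bearing control of this cross would be Hdac3 fl/+, with 1 allele open to deletion in its epithelium. Litters and sexes are not on the labels, which describe the lungs as biological replicates. No lung without ShhCre was analysed here, so the controls stand for this genotype and not for a wild-type lung.

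Late in gestation the distal lung epithelium divides its work between alveolar type 2 (AT2) cells, which make surfactant, and thin alveolar type 1 (AT1) cells, across which gas will pass. Airways are lined by secretory club cells and multiciliated cells, and both compartments lie in a bed of capillaries, fibroblasts, smooth muscle and a mesothelial cover. The dividing progenitors thin out while surfactant genes, many of them under NKX2-1 and responsive to glucocorticoid, are turned on before the first breath.

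Of 24888 probe sets, 18922 were annotated to exactly 1 gene symbol, and the probe set of highest control mean was kept for each symbol, giving 17919 genes. All values are log2 probe set levels as deposited, and ± marks the SD over the 5 lungs (n = 5). A rank gives the brightness of a probe set on the array, which depends on how well it hybridises as well as on the amount of its RNA, so it is no order of abundance between genes. Values ran from 3.66 to 13.61, the median gene had a mean of 7.80, and the floor used below was 6.11, the level of the dimmest 20% of values. Whole lungs were profiled, so fewer cells of a type and less RNA per cell cannot be told apart.

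The arrays were close to each other but not interchangeable. Pairs of arrays correlated at 0.988 to 0.995 across all 24888 probe sets, which are not independent replicates, and array medians lay between 7.43 and 7.45. Control lungs 4 and 5 stood apart from lungs 1 to 3 on the first principal component of the 8959 genes above the median level. That component held 47.5% of the variance, with scores of 6.69, 7.15 and 4.07 in lungs 1 to 3 and of -9.43 and -8.47 in lungs 4 and 5. Lung 1 also stood apart by its sex-linked genes. Labels give no batch, date or litter that could be set beside these patterns, and their origin was not tested.

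Sex-linked genes divided the lungs and showed how low a probe set can read on this array. Xist, the non-coding RNA that coats the inactive X chromosome, read 11.21, 5.13, 4.97, 5.07 and 5.02 in lungs 1 to 5. The Y-linked histone demethylase gene Uty read 4.39, 9.94, 9.88, 9.78 and 9.93, the Y-linked translation factor gene Eif2s3y 4.75, 9.65, 9.67, 9.72 and 9.74, and Kdm5d, another Y-linked demethylase gene, 5.01, 9.67, 9.33, 9.25 and 9.53. Lung 1 was thus the 1 lung with a high Xist level and the 1 lung without signal from these 3 Y-linked genes. The X-linked genes Ddx3x, Kdm6a and Kdm5c, which are known to escape X inactivation, also had their highest value in lung 1, at 10.87, 10.56 and 10.03. Sry, the Y-linked testis-determining gene, read between 6.83 and 7.11 in all 5 lungs, lung 1 included. Lung 1 gave no signal from the other Y-linked genes, so a level near 7 does not by itself show a transcript, and levels without signal differ between probe sets.

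The brightest genes of the control lung mixed the translation and mitochondrial machinery of any tissue with products of the alveolar epithelium. The brightest single-gene probe set was Rn7sk, a small nuclear RNA gene named here after its value was seen, at 13.57 ± 0.030. Next came Sftpc, which encodes surfactant protein C, at 13.46 ± 0.024 and rank 2 of 17919. Lyz1, a lysozyme gene, followed at 13.27 ± 0.068, but near-identical Lyz2, at 11.91 ± 0.15, can share its signal. 111 genes had a mean of at least 12, which is 0.619% of the genes.

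**Figure D1:**
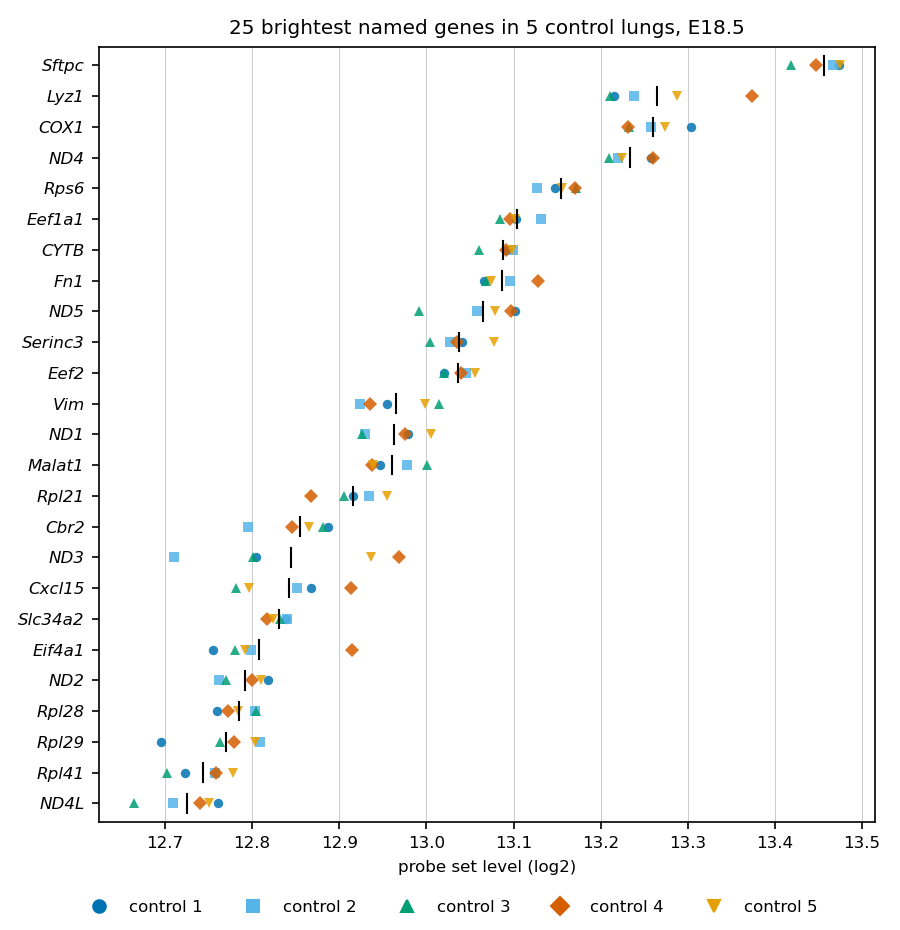
Log2 probe set level (x axis) of the 25 brightest genes allowed a name by the rule, with 1 point per control lung and a black line at the 5-lung mean. The 5 lungs lie close together for most genes, with Sftpc at 13.46 at the top and ND4L at 12.72 at the bottom, while lung 4 sits apart for Lyz1 and Eif4a1.

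Of the 100 brightest genes, 92 were protein coding, 11 carried ribosomal protein symbols and 9 of the 10 mitochondrially encoded genes with a probe set of their own were among them. The mitochondrial genes included COX1 of cytochrome oxidase at 13.26, CYTB of the cytochrome bc1 complex at 13.09 and the complex I subunits ND4, ND5, ND1, ND3, ND2 and ND4L between 12.72 and 13.23. Translation was represented by Rps6, Rpl21, Rpl28, Rpl29 and Rpl41 of the ribosome, by the elongation factors Eef1a1 and Eef2 and by the helicase Eif4a1, with means from 12.74 to 13.15. Some symbols had several probe sets, and the median over them was 10.75 for Eef1a1, 10.85 for Vim and 10.67 for Malat1, far below the brightest one used here. Ribosomal protein genes have many processed pseudogenes, so their probe sets can bind more than 1 transcript. The membrane protein gene Serinc3 read 13.04 ± 0.027 and the nuclear long non-coding RNA Malat1 12.96 ± 0.028.

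Lineage genes were also among the brightest. AT2 genes held 8 of the 100 places, fibroblast and matrix genes 5, and AT1, club and endothelial genes 2 each. Haemoglobin was bright too: the probe set shared by Hba-a1 and Hba-a2, the adult alpha globin genes, read 13.23 ± 0.021 and was left out of the ranking because it names more than 1 gene. The median SD of the 100 brightest genes was 0.0410, against 0.098 for all genes.

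Surfactant and AT2 genes were bright as a group, with 24 of 26 measured members in the brightest 25% of genes, which begins at 9.06, and a median level of 11.41, against 7.80 for all genes. Sftpc read 13.47, 13.47, 13.42, 13.45 and 13.47 in lungs 1 to 5, a range of 0.056. Sftpb, which encodes the surfactant protein B needed for breathing air, read 12.64, 12.55, 12.58, 12.63 and 12.59. Sftpa1, for the collectin surfactant protein A, read 12.39, 12.41, 12.21, 12.51 and 12.41, with lung 3 lowest. Lung 3 was the lowest for Sftpc and Sftpa1 and lung 2 for Sftpb. Over the list, lung 3 was the lowest lung for 12 of 26 members, with a mean deviation of -0.076, against 17.3% of all genes above the floor.

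Other AT2 genes covered lipid packaging, transport and secretion. Abca3, the lipid transporter of lamellar bodies, read 11.46 ± 0.029, Lamp3, a lamellar body membrane protein, 11.60 ± 0.094, and Lpcat1, which makes surfactant phosphatidylcholine, 12.31 ± 0.037. Slc34a2, the AT2 phosphate transporter, read 12.84, 12.84, 12.83, 12.82 and 12.82 and had the smallest SD of the 500 brightest genes that the rule names, 0.0096. The lung chemokine gene Cxcl15 read 12.84 ± 0.054, the lipogenic desaturase gene Scd1 12.29 ± 0.12 and the fatty acid scavenger gene Cd36 11.75 ± 0.11. Sftpd, for the collectin surfactant protein D, was dimmer at 10.32 ± 0.093. The dimmest members were Slc27a3, a fatty acid transporter gene, at 7.94 ± 0.12 and Bex2 at 7.33 ± 0.17.

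The 250 bases before the start of Sftpb are shown because it is a bright surfactant gene whose promoter is known to bind NKX2-1, and the capitals mark CTCAAG, a core of that factor's site, searched on both strands. Coordinates and sequences of the promoters here come from RefSeq on GRCm38.p6, and this window lies on the plus strand at chr6:72304360-72304609.

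Sftpb promoter: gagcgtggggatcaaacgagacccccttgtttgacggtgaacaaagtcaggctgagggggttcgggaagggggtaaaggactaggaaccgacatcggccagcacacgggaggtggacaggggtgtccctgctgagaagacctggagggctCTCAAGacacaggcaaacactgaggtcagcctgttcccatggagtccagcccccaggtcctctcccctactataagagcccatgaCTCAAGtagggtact

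The Sftpb window held 2 CTCAAG matches. Over windows of 300 bases, reaching 50 bases past the start, 4 of the 20 AT2 genes in the promoter table held CTCAAG (20%), against 14.3% of 13819 measured genes. TATAAA, the TATA box on either strand, stood in 8 of the 20 AT2 promoters (40%) and in 9.3% of all promoters. These matches are descriptions of sequence and say nothing of binding in these lungs.

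AT1 genes were nearly as bright as a group, with 22 of 26 in the brightest 25% and a median level of 10.73. Emp2, a tetraspan membrane protein gene, read 12.63 ± 0.069. Ager, which encodes the RAGE receptor abundant on AT1 membranes, read 12.23, 12.32, 12.40, 12.38 and 12.23 at rank 63. Cldn18, a tight junction claudin gene, read 12.02 ± 0.053 and Akap5, a kinase anchor gene, 11.76 ± 0.064. The membrane glycoprotein gene Pdpn read 10.19, 10.20, 10.42, 10.24 and 10.10 and the water channel gene Aqp5 10.15, 10.26, 10.17, 10.28 and 10.25. Hopx, a homeodomain-only regulator widely used to mark AT1 cells, was far dimmer at 8.55 ± 0.094. The dimmest member was Igfbp2, a growth factor binding protein gene, at 6.53 ± 0.076.

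Rtkn2, a gene known from AT1 cells, was the AT1 member of largest spread. Its values were 10.72, 10.89, 10.76, 11.65 and 11.09, so lungs 4 and 5 were above the other lungs and lung 4 highest. Scnn1g, a subunit of the epithelial sodium channel that clears fluid from the lung, read 10.73, 10.67, 10.95, 11.02 and 11.18. It too was higher in lungs 4 and 5 than in lungs 1 to 3. The group as a whole stayed within -0.063 and 0.045 of its mean in every lung.

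**Figure D2:**
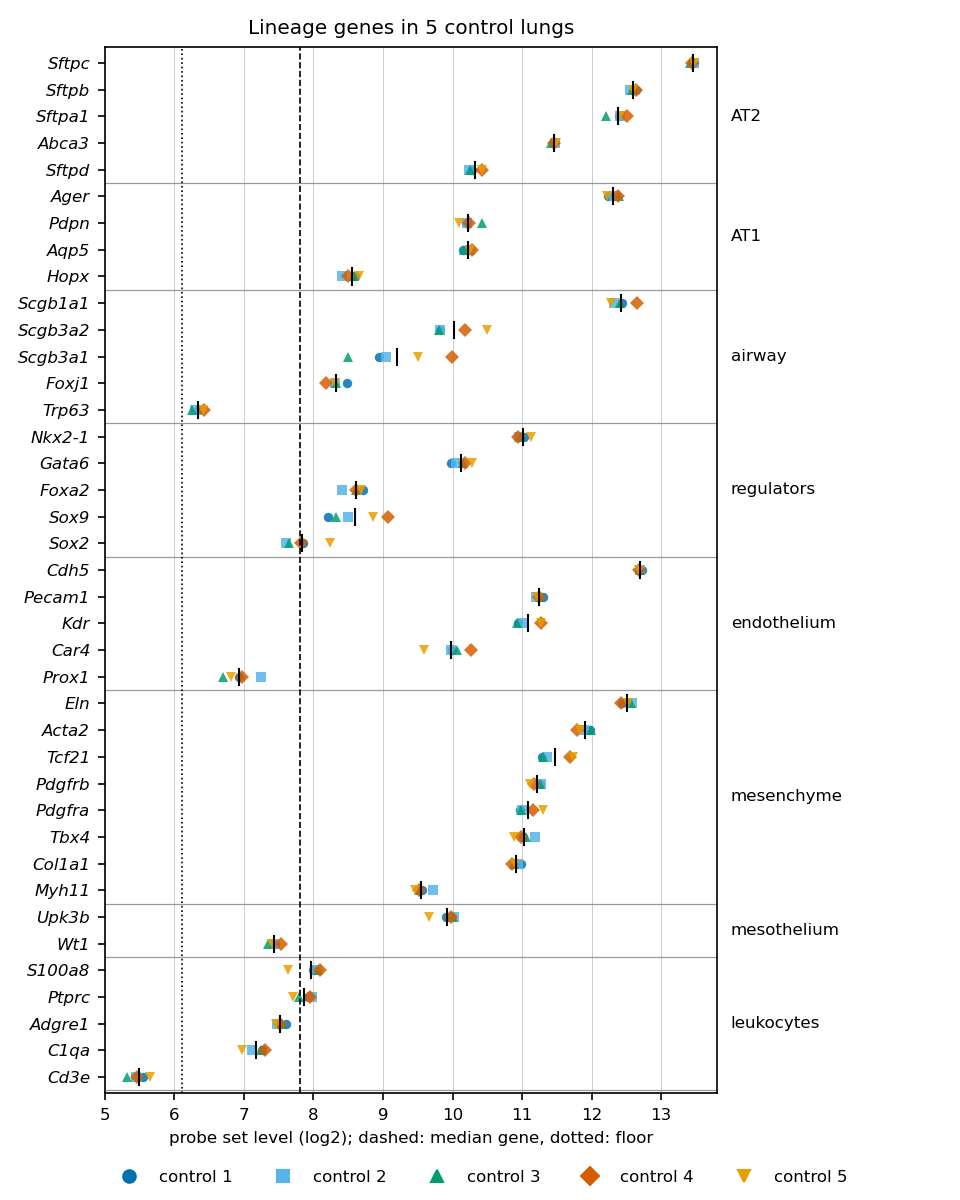
Log2 probe set level (x axis) of lineage genes, with 1 point per control lung and a black line at the 5-lung mean; the dashed line is the median gene at 7.80 and the dotted line the floor at 6.11. Epithelial, endothelial and mesenchymal genes lie mostly right of the dashed line, Cd3e lies left of the dotted line, and Scgb3a1, Scgb3a2, Sox9 and Car4 show the widest separation of lungs.

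Conducting airway genes spanned a wide range of brightness. 12 of 18 club and secretory genes lay in the brightest 25%, led by the carbonyl reductase gene Cbr2 at 12.86 ± 0.037. Scgb1a1, the club cell secretoglobin gene, read 12.44, 12.32, 12.41, 12.66 and 12.28, and the club cell cytochrome P450 gene Cyp2f2 read 11.68 ± 0.051. Secretoglobin genes were also where lungs diverged. Scgb3a1 read 8.94, 9.04, 8.50, 9.999 and 9.50 and Scgb3a2 9.82, 9.82, 9.81, 10.18 and 10.49. Lungs 4 and 5 were above the other lungs for both genes, with lung 4 highest for Scgb3a1 and lung 5 highest for Scgb3a2.

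Club genes as a list had a median SD 1.90 times that of genes of like level, meaning genes in the same of 20 bins of brightness. Reg3g, an antimicrobial lectin gene, read 7.41, 6.75, 6.88, 8.59 and 7.36, with lung 4 far above the rest. The mean deviation of the list in lung 4 was 0.15, but it was 0.0313 as a median over the same genes. Without lung 4 the median SD was 0.10, against 0.15 with it.

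Multiciliated genes were modest, with 3 of 21 in the brightest 25% and a median level of 8.15. Foxj1, the master regulator of motile cilia, read 8.48, 8.30, 8.32, 8.18 and 8.31, and the tubulin polymerisation gene Tppp3 was the brightest member at 10.70 ± 0.10. Neuroendocrine and basal cell genes were dimmer still. None of 12 neuroendocrine genes lay in the brightest 25% and the brightest was Grp, for gastrin-releasing peptide, at 8.52 ± 0.096. Trp63, the regulator of basal cells, read 6.35 ± 0.074. Snai2, a zinc finger gene that mesenchyme also expresses, was the 1 bright member of the basal list at 10.65 ± 0.16. Krt5 was measured on a probe set shared with Krt6a, at 6.71 ± 0.12, and Calca was not analysed here.

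Regulators of lung epithelium were led by genes of the distal lung. Fgfr2, the receptor for mesenchymal FGF10, read 11.72 ± 0.080, Id2, a distal tip inhibitor of DNA binding, 11.29 ± 0.067, and Nkx2-1, the identity factor of lung epithelium, 11.03, 10.96, 10.99, 10.94 and 11.13. Gata6 read 10.13 ± 0.11, the forkhead factor gene Foxa1 9.76 ± 0.17 and its paralogue Foxa2 8.61 ± 0.12. Proximal Sox2 read 7.86, 7.60, 7.64, 7.82 and 8.24 and distal Sox9 8.21, 8.49, 8.33, 9.07 and 8.86. Sox9, which cartilage progenitors also express, was above 8.49 in lungs 4 and 5 and at or below it in lungs 1 to 3. Sox2 had its highest value in lung 5. Etv4, an FGF-induced factor gene, was dim at 6.43 ± 0.14.

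Probe choice mattered for Shh itself. The single-gene probe set of Shh, the ligand whose regulatory sequence drives the Cre, read 7.17 ± 0.16, while a probe set shared with the transcript 9530036O11Rik read 9.30 ± 0.13. Hdac3, the gene floxed in this cross, read 10.80, 10.90, 10.80, 10.67 and 10.90 in the controls, a mean of 10.81 ± 0.098. Hdac3 is known to be broadly expressed, so a whole-lung value does not show the state of the epithelial alleles. General epithelial genes were led by Cdh1, for E-cadherin, at 11.20 ± 0.050, followed by the keratin gene Krt8 at 11.19 ± 0.085 and Epcam at 10.28 ± 0.058, though the median over the probe sets of Cdh1 was 8.33. Cldn4, a tight junction gene, read 8.92, 9.12, 8.84, 8.12 and 8.09, low in lungs 4 and 5. In that list of 15 genes, 5 had lungs 4 and 5 below the rest and 1 above, against 18.7% and 16.9% of all genes above the floor. The mean deviations of the list in lungs 4 and 5 were -0.12 and -0.057.

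Endothelial genes formed an evenly bright group, with 22 of 24 in the brightest 25% and every member above the median gene. Cdh5, for VE-cadherin, read 12.73, 12.69, 12.70, 12.68 and 12.68 at rank 29. Calcrl, a receptor for adrenomedullin, read 12.39 ± 0.081, the sialomucin gene Emcn 11.93 ± 0.096 and Pecam1 11.25 ± 0.037. Kdr, the main receptor for VEGF-A, read 10.94, 11.000, 10.93, 11.27 and 11.28, and lungs 4 and 5 were higher than the others. Aplnr, the apelin receptor gene of capillary progenitors, went the other way at 10.37, 10.45, 10.35, 9.95 and 9.97.

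Vessel subtypes were less bright. Capillary, artery and vein genes had 10 of 18 members in the brightest 25%, with the complement receptor gene Cd93 at 11.11 ± 0.052 and Ednrb, an endothelin receptor gene, at 11.11 ± 0.060. Car4, a carbonic anhydrase gene of a capillary subtype, read 9.99, 9.98, 10.07, 10.27 and 9.59, lowest in lung 5 and highest in lung 4. The arterial genes Gja5 (connexin 40), at 7.15, 7.01, 7.06, 7.66 and 7.64, and Efnb2 (ephrin B2), at 9.30, 9.47, 9.48, 9.89 and 9.80, were higher in lungs 4 and 5 than in the rest. A probe set shared by Gja5 and Gpr89 read 8.73, 8.84, 8.76, 8.77 and 8.78 and did not separate the lungs. Over this list, 4 of 18 members had lungs 4 and 5 both above the rest and 0 both below, against 16.9% and 18.7% of all genes above the floor. Lung 4 was highest for 12 of the 18, against 20.1% of all genes above the floor. The list deviated by 0.12 in lung 4 and by -0.0006 in lung 5. Of the lymphatic genes, the hyaluronan receptor gene Lyve1 was the brightest at 11.76 ± 0.090, whereas Prox1, the lymphatic identity factor, read 6.93 ± 0.21. LYVE1 is also known on fetal capillaries and macrophages.

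Fibroblast and matrix genes had a median level of 10.91, and 25 of 31 lay in the brightest 25%. Fn1, for fibronectin, read 13.09 ± 0.026, the intermediate filament gene Vim 12.97 ± 0.040 and Eln, for the elastin laid down in future alveolar walls, 12.44, 12.59, 12.56, 12.42 and 12.52. The fibrillar collagen genes Col1a1 and Col3a1 read 10.91 ± 0.053 and 10.60 ± 0.069. The lung mesenchyme factor Tbx4 read 11.03 ± 0.11 and Pdgfra, the receptor of alveolar myofibroblast progenitors, 10.97, 10.995, 10.98, 11.16 and 11.30. Lum, for the proteoglycan lumican, lay below the floor at 5.60 ± 0.13.

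Of 30 fibroblast and matrix genes above the floor, lungs 4 and 5 were both above lungs 1 to 3 for 8 and both below for 5, against 16.9% and 18.7% of all genes. Meox2, a homeobox gene of mesenchyme and endothelium, read 10.29, 10.43, 10.41, 11.13 and 11.01. Tcf21, a helix-loop-helix factor of lipofibroblasts, read 11.29, 11.36, 11.30, 11.69 and 11.74. Inmt, a methyltransferase gene of lung fibroblasts, read 10.49, 10.34, 10.47, 11.14 and 10.93. For these 3 genes and for Pdgfra, lungs 4 and 5 did not overlap with lungs 1 to 3 and were the higher. Fn1, Col1a1 and Eln showed no such separation.

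Muscle, fat-storing and mesothelial genes completed the mesenchyme. Acta2, for smooth muscle actin, read 11.98, 11.89, 11.996, 11.80 and 11.83, Hhip, a hedgehog antagonist, 11.48 ± 0.094 and Pdgfrb, a pericyte receptor, 11.22 ± 0.067. Myh11, the myosin of mature smooth muscle, was dimmer at 9.55 ± 0.098. The lipofibroblast list had 7 of 11 members in the brightest 25%, with the lipid droplet gene Plin2 at 10.42 ± 0.17. Among mesothelial genes Msln, for mesothelin, read 11.28 ± 0.16 and Upk3b, for a uroplakin, 9.92 ± 0.15, but Wt1 read 7.43 ± 0.067.

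The 24 macrophage and monocyte genes had a median level of 7.79, and 12 lay above the median gene. Of these, 3 lay in the brightest 25%: Lyz1 and Lyz2, which AT2 cells also express, and the adaptor gene Tyrobp at 9.48 ± 0.083. Csf1r, the receptor for macrophage growth factor, read 8.92 ± 0.071, the macrophage receptor gene Adgre1 7.52 ± 0.058, complement gene C1qa 7.18 ± 0.13 and the pan-leukocyte phosphatase gene Ptprc 7.87 ± 0.12. Of 21 neutrophil, mast and lymphoid genes, 8 were below the floor, among them Cd3e of the T cell receptor complex at 5.49 ± 0.12. Kit, the stem cell factor receptor gene, was their 1 member in the brightest 25%, at 9.56 ± 0.076.

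Some neutrophil genes were lowest in lung 5. Retnlg, a neutrophil resistin-like gene, read 8.43, 8.18, 8.22, 8.20 and 7.14, and Stfa2l1, a stefin gene, 8.88, 8.73, 8.85, 8.82 and 7.999. S100a8, for calprotectin, read 7.99, 8.06, 8.06, 8.10 and 7.64 and the granule genes Ngp and Ltf 8.04, 7.91, 8.15, 7.99 and 7.50 and 8.06, 7.80, 8.005, 8.16 and 7.68. Lung 5 was lowest for all 5 genes. Of the neutrophil, mast and lymphoid list, lung 5 was lowest for 6 of 13 members above the floor, against 21.2% of all genes. For Retnlg, leaving out lung 5 moved the SD: it was 0.12 in place of 0.51. Chil3, a chitinase-like gene of myeloid cells, read 7.77, 7.42, 6.69, 7.60 and 7.95.

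Genes of neighbouring tissues were mostly dim, with cardiac muscle as an exception. No skeletal muscle, cartilage, or foregut, thymus and liver gene lay in the brightest 25%, out of 12, 9 and 22 measured. Of 19 cardiac genes, 5 did: Tnnt2 at 10.91 ± 0.098, Actc1 at 10.67 ± 0.11, Myl7 at 10.34 ± 0.12, Tnni3 at 9.67 ± 0.13 and Myh6 at 9.18 ± 0.18, which encode contractile proteins of heart muscle. The ventricular light chain genes Myl2 and Myl3 read 6.18 ± 0.10 and 6.18 ± 0.22, near the floor. Cardiomyocytes are known to line the pulmonary veins of mice, and the part of heart tissue in these values was not tested. Nppa, for atrial natriuretic peptide, read 6.80, 6.67, 8.02, 7.04 and 6.95, so lung 3 stood 0.98 above the next lung, and without lung 3 its SD was 0.17 in place of 0.54.

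Spread between the control lungs was small for most genes. The median SD over all genes was 0.098, with quartiles of 0.068 and 0.14, and 44 genes (0.246%) had an SD of at least 0.5. Above the median level, 5448 of 8959 genes (60.8%) had an SD under 0.1. Bright genes varied less, with a median SD of 0.0776 in the brightest 25% and 0.112 in the dimmest. The steadiest named genes among the 500 brightest were Slc34a2, the signal peptidase gene Spcs2 at 11.55, the chromatin protein gene Hmgb1 at 11.52, the thioredoxin gene Txn1 at 11.40 and the catenin gene Ctnna1 at 11.10, with SDs from 0.0096 to 0.015.

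**Figure D3:**
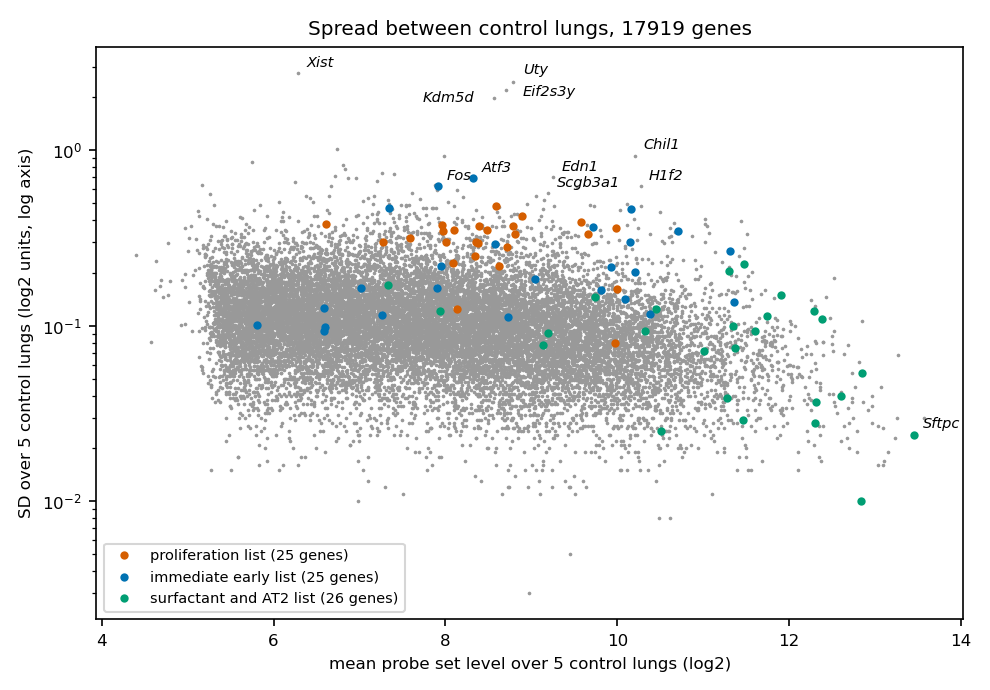
SD over the 5 control lungs (y axis, log scale, log2 units) against mean log2 probe set level (x axis) for 17919 genes in grey, with 3 gene lists in colour. Proliferation genes (orange) and several immediate early genes (blue) lie above the bulk of genes at the same level, while AT2 genes (green) lie mostly within the bulk.

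The lungs were not evenly apart. Of the 15032 genes above the floor, 8 differed by at least 2-fold between lungs 2 and 3, the closest pair by that count, 11 between lungs 1 and 3, and 48 between lungs 2 and 4, the most distant. At a difference of at least 0.5 on the log2 scale, lungs 1 and 3 were the closest pair with 67 genes, against 131 for lungs 2 and 3. The counts for lung 1 include the sex-linked genes. Among the 176 genes above the median level with an SD of at least 0.3, the widest gap set lung 4 alone below the others for 45 genes. It set lungs 4 and 5 together below the rest for 36 genes and together above for 24. These counts describe 5 lungs, whose number limits the precision of every SD given here.

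Proliferation genes varied between lungs more than any other list except the sex-linked one. Their median SD of 0.33 was 3.36 times that of genes of like level, and 23 of 25 members were at 2 times that level or more. Mki67, for the Ki-67 antigen of cycling cells, read 9.91, 10.35, 10.10, 9.41 and 10.16. Top2a, for the topoisomerase of dividing chromosomes, read 9.06, 9.21, 9.01, 8.15 and 9.04. Kif11, for a spindle motor, read 8.64, 9.13, 8.74, 7.82 and 8.62, and Ccnb2, for a mitotic cyclin, 9.69, 9.92, 9.69, 8.91 and 9.67.

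Lung 2 was highest for 25 of 25 proliferation genes and lung 4 lowest for 24. Mean deviations of the list were 0.33 in lung 2 and -0.47 in lung 4, and 0.015, 0.097 and 0.033 in lungs 1, 3 and 5. Lung 2 was also the highest lung for 30.6% of all genes above the floor and lung 4 the lowest for 24.0%. Without lung 4 the median SD of the list was 0.15. Mcm6, a replication helicase gene, was the 1 member with its lowest value in lung 5, at 8.36 against 8.42 in lung 4. Pcna, the replication clamp gene, spread least at 9.91, 10.10, 10.001, 9.90 and 9.96.

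The 250 bases before the starts of Top2a and Ccnb2, both on the proliferation list, are shown. Capitals mark CCAAT, the box bound by NF-Y (ATTGG on the other strand), and TTTGAA, a core of the cell cycle homology region (TTCAAA on the other strand). Both windows are written on the genes' minus strand, with Top2a at chr11:99024190-99024439 and Ccnb2 at chr9:70421555-70421804, GRCm38.p6.

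Top2a promoter: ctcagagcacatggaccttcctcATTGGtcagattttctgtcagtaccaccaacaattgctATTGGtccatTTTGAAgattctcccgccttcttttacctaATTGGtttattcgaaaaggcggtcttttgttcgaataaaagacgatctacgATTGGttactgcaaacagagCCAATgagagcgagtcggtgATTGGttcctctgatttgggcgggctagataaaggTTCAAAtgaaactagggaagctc

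Ccnb2 promoter: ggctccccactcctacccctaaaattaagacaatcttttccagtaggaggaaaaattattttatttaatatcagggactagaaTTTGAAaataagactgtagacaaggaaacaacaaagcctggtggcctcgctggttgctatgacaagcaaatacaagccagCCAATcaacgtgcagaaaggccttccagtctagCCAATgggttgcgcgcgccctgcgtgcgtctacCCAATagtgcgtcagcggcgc

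The Top2a window held 6 CCAAT and 2 TTTGAA matches and the Ccnb2 window 3 and 1, none of which overlapped another. Over windows of 300 bases, CCAAT stood in 18 of the 21 proliferation promoters in the table (85.7%) and in 37.7% of all 13819. TTTGAA stood in 11 (52.4%) against 13.2%, and TATAAA in 0 against 9.3%. These matches describe sequence only, and a link to the differences between lungs was not tested.

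Linker histone genes, whose messenger RNA is made mainly while DNA replicates, were low in lungs 4 and 5. The proliferation list deviated by -0.47 in lung 4 and by 0.033 in lung 5, from a mean that lung 4 lowers. Without lung 4 it deviated by -0.10, -0.02 and -0.086 in lungs 1, 3 and 5 and by 0.21 in lung 2. For 9 of its 25 genes lungs 4 and 5 were both below lungs 1 to 3, and for 0 both above. H1f2 read 10.65, 10.93, 10.55, 9.76 and 9.47 and H1f5 8.37, 8.83, 8.38, 7.37 and 8.03. H1f10, a variant known to be made outside replication, was named after its values were seen and read 9.27, 9.50, 9.30, 8.51 and 8.84. All 3 linker histone genes above the median level were among the variable genes, which were 176 of all 8959 genes above that level. Lungs 4 and 5 were below lungs 1 to 3 in each case, against 18.7% of all genes above the floor. The 3 genes were named for their spread or after their values were seen, so they cannot be read against these shares.

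Immediate early genes, which cells switch on within minutes of a stimulus, had the next largest spread by this measure, at 2.13 times genes of like level. Fos, of the AP-1 factor, read 8.19, 8.47, 8.42, 7.33 and 7.16 and its partner gene Jun 11.51, 11.43, 11.56, 11.07 and 10.98. Atf3, a stress-induced factor, read 8.80, 8.93, 8.74, 7.42 and 7.73. The phosphatase gene Dusp1 read 11.001, 10.92, 10.97, 10.31 and 10.36 and Zfp36, for an mRNA decay factor, 10.35, 10.59, 10.54, 9.64 and 9.68.

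For each of these 5 genes lungs 4 and 5 lay below every one of lungs 1 to 3. The same held for 15 of the 24 immediate early genes above the floor, against 18.7% of all genes above the floor. Mean deviations of the list were 0.13, 0.13 and 0.12 in lungs 1 to 3 and -0.18 and -0.20 in lungs 4 and 5. In 3 members lungs 4 and 5 were both above lungs 1 to 3, against 16.9% of all genes above the floor. Ier3, an apoptosis regulator gene, was 1 of them at 10.06, 9.78, 10.10, 10.20 and 10.60. Ccn2, a matricellular gene, was another at 9.95, 9.55, 10.01, 10.08 and 10.04, with lungs 4 and 5 only slightly above lung 3 and lung 2 low.

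The Fos promoter is shown because its gene had the second largest SD of the list. Capitals mark TGACGT, a core of the cyclic AMP response element, and TATAAA, each searched on both strands, in the 250 bases before the start on the plus strand at chr12:85473640-85473889, GRCm38.p6.

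Fos promoter: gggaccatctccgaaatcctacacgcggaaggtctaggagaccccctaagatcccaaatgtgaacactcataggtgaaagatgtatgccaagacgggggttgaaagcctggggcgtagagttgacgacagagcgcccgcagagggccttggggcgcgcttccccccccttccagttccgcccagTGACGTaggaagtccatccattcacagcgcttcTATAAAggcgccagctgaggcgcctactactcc

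Each motif occurred 1 time, without overlap. TGACGT stood in 6 of the 20 immediate early promoters (30.0%) and in 10.2% of all promoters in the table. A link between these matches and the levels in these lungs was not tested.

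Some genes known to respond to glucocorticoid showed the same division of lungs. Fkbp5, for an immunophilin of the receptor complex, read 9.72, 9.59, 9.62, 9.05 and 9.07. Zbtb16, for a zinc finger factor, read 10.91, 10.94, 10.78, 10.17 and 10.28, and the clock gene Per1 10.90, 11.003, 10.89, 10.61 and 10.43. Klf9, for a Kruppel-like factor, read 10.78, 10.85, 10.70, 10.41 and 10.33, and Cdkn1a, for the cell cycle inhibitor p21, 10.46, 10.65, 10.57, 10.22 and 9.46. In all 5 genes lungs 4 and 5 were below lungs 1 to 3, as in 12 of 24 members of the glucocorticoid and circadian list, against the 18.7% of all genes. In 4 members lungs 4 and 5 were above the rest, against 16.9% of all genes above the floor.

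Clock, a core clock gene, read 10.80, 10.82, 10.79, 10.82 and 10.77 and Arntl, its partner gene, 8.92, 8.87, 8.96, 9.11 and 9.01, and neither was low in both lungs 4 and 5. Tsc22d3, a classical glucocorticoid-induced gene, read 8.77, 8.76, 8.87, 8.81 and 8.58 and did not separate the lungs. Ddit4, which responds to glucocorticoid and to low oxygen, read 9.22, 9.70, 9.22, 8.80 and 8.60, and Ndrg1, a differentiation gene induced by low oxygen, 11.24, 11.04, 11.01, 10.54 and 10.50, both low in lungs 4 and 5. Adm, for adrenomedullin, another gene known to respond to low oxygen, read 7.17, 7.13, 7.06, 7.59 and 7.59 and was high in lungs 4 and 5.

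**Figure D4:**
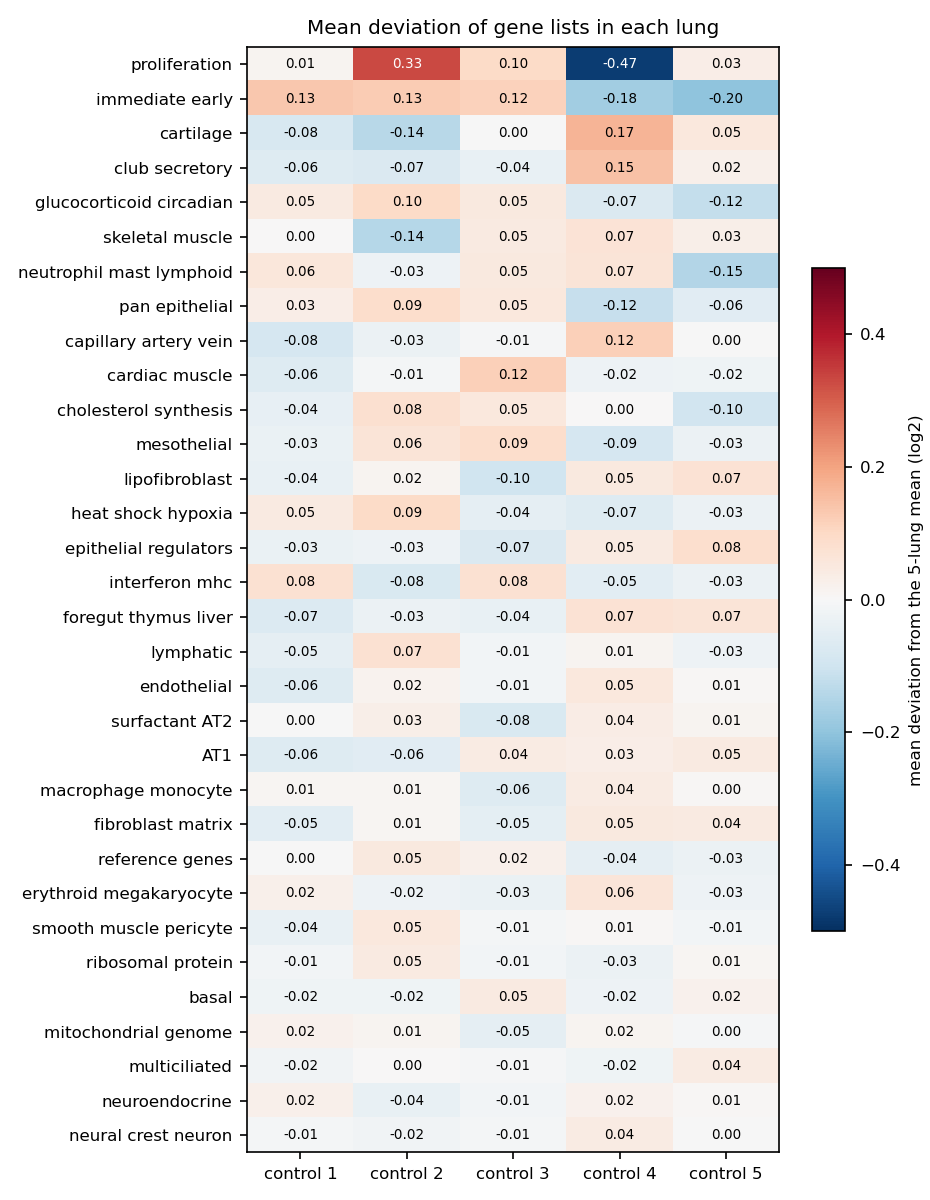
Mean deviation of each of 32 gene lists (y axis; the sex-linked list is left out) from its 5-lung mean in each control lung (x axis), in log2 units by colour and number, ordered by range. Proliferation runs from -0.47 in lung 4 to 0.33 in lung 2, immediate early genes are negative in lungs 4 and 5, and lung 4 reads 0.035 for AT1, 0.036 for AT2, 0.052 for endothelial, 0.15 for club, 0.12 for capillary, artery and vein, -0.12 for general epithelial and 0.17 for cartilage genes.

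Among the 25 named genes of largest SD above the median level, 13 had lungs 4 and 5 below the rest and 4 had them above. Of all genes above the floor, 18.7% and 16.9% did so. The 25 genes were chosen for their spread between these same lungs, so their counts cannot be read against these shares. Low in lungs 4 and 5 were Gata2, an endothelial and blood factor, at 10.13, 10.02, 10.07, 9.32 and 9.10, the protease gene Adamts15 at 9.72, 9.64, 9.49, 8.70 and 8.80, the tendon homeobox gene Mkx at 8.47, 8.61, 8.17, 7.76 and 7.46 and the serotonin receptor gene Htr2a at 8.10, 8.30, 8.18, 7.35 and 7.34. Slc7a5, an amino acid transporter gene, read 10.52, 10.75, 9.94, 9.62 and 9.74 and the endocytic receptor gene Lrp2 7.69, 8.46, 8.19, 7.31 and 7.56. All 6 genes had lungs 4 and 5 below each of the other lungs.

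High in lungs 4 and 5 was Edn1, for the vasoconstrictor endothelin 1, at 8.59, 8.65, 9.07, 10.18 and 9.78, a range of 1.59. Bmp4, a morphogen of distal lung tips, read 8.96, 9.14, 9.07, 9.65 and 9.56, the chemokine receptor gene Cxcr4 8.63, 9.15, 8.70, 9.65 and 9.53 and Ppp1r3c, for a glycogen-targeting phosphatase subunit, 9.59, 9.90, 9.63, 10.40 and 10.59. Kdr, Gja5, Efnb2, Sox9, Meox2 and Tcf21, described above, fell on the same side of the division. They were gathered after the division of lungs had been seen, and no test was made of them as a set.

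**Figure D5:**
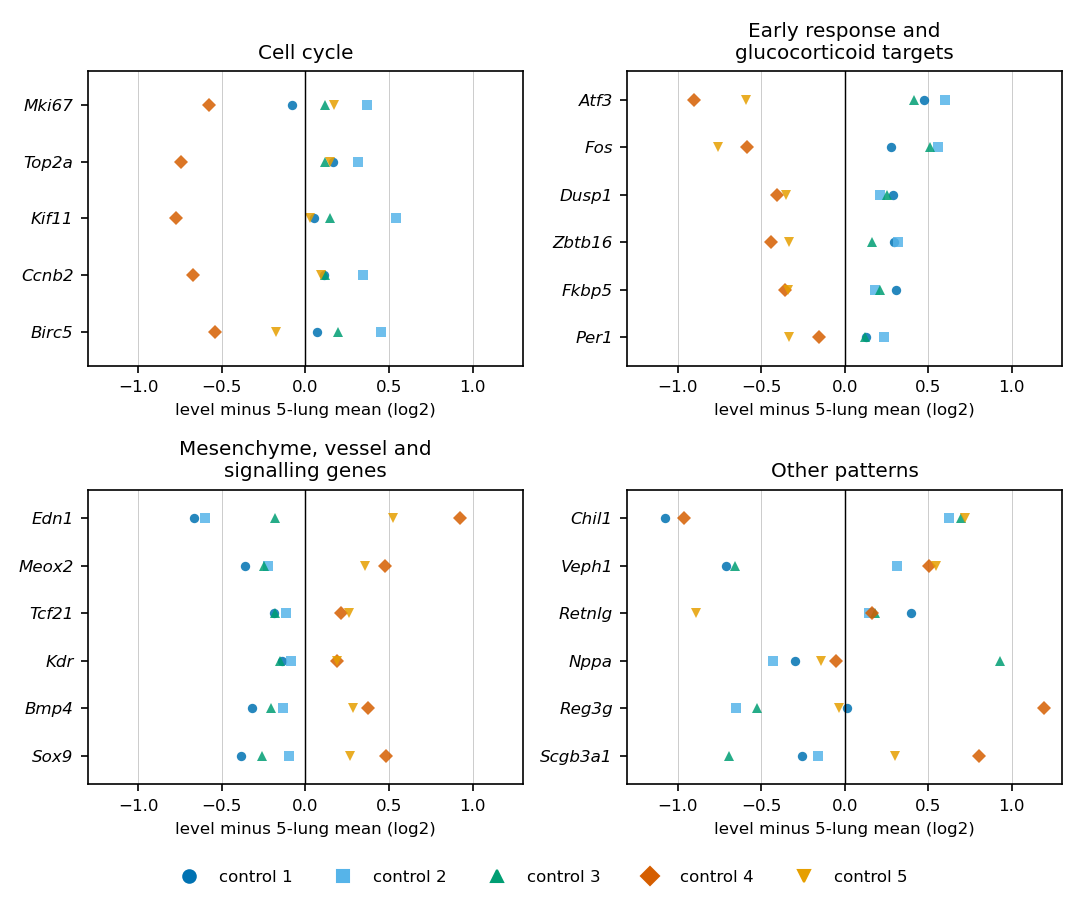
Log2 level minus the 5-lung mean (x axis) for genes of 4 kinds, with 1 point per control lung. Lung 4 lies lowest for cell cycle genes, lungs 4 and 5 lie left of 0 for early response and glucocorticoid genes and right of 0 for Edn1, Meox2, Tcf21, Kdr, Bmp4 and Sox9, and the last panel shows genes with other divisions.

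Some variable genes divided the lungs in ways no list shared. Chil1, a chitinase-like gene, read 9.12, 10.83, 10.90, 9.24 and 10.92, so lungs 1 and 4 lay more than 2-fold below the other 3. Veph1 read 7.17, 8.20, 7.22, 8.39 and 8.43, low in lungs 1 and 3. Sulf2, for a heparan sulfatase, read 8.87, 9.28, 10.25, 10.11 and 9.14, high in lungs 3 and 4.

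Klk1b22, a kallikrein gene with close paralogues, read 9.18, 10.34, 9.23, 9.72 and 9.93, and Npl, for a sialic acid lyase, 9.27, 8.13, 8.95, 9.41 and 9.01, so lung 2 was the high lung for the first and the low lung for the second. Oasl2, an interferon-induced gene, read 8.58, 7.70, 8.55, 7.85 and 8.27, with lungs 2 and 4 low. Ppbp, a platelet chemokine gene, read 9.62, 9.12, 9.11, 9.34 and 8.63, with lung 1 high and lung 5 low. M1ap, a meiosis gene, read 8.09, 8.57, 7.59, 7.82 and 7.36, highest in lung 2. Steap4, a metalloreductase gene, read 7.54, 8.22, 8.43, 7.88 and 8.44, with lungs 1 and 4 lowest, as for Chil1.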

How the data were processed

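Whole lungs of 5 ShhCre control embryos at E18.5 were profiled on 1 Affymetrix array each, with 100 ng of total RNA primed by poly(T) and amplified by in vitro transcription, per the labels' protocols. The deposited value table holds log2 levels per probe set, and the submitters' processing notes name oligo, RMA and limma without versions. Genome build, RMA settings and any filter on probe sets: not given in the sources used here. An array gives no read depth, so the number of lungs sets the precision. RMA quantile normalization draws the arrays to 1 distribution, which would remove any difference in total signal between lungs.

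The 5 columns of Hdac3-deleted lungs were not used. The deposited table holds all 10 lungs, so the control levels may have been normalized together with those of the Hdac3-deleted lungs. Of the probe sets, 18922 had 1 gene symbol in the platform annotation, 1343 several and 4623 none. The brightest probe set was kept for each gene, and 17790 of 17919 genes matched the RefSeq gene table by gene ID. Means, sample SDs, ranks, deviations of gene lists and principal components were computed with Python 3.11.15, numpy 2.4.6 and pandas 2.3.3, and figures with matplotlib 3.10.9. The script was tested on simulated data. No groups were compared. The only test was Dixon's rule for 1 lung far from the other 4.

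Named genes were the 25 brightest, the 25 of largest SD above the median level, the 5 of smallest SD among the 500 brightest, 8 at each end of 2 components, a set of lineage hallmarks and, from each of 33 lists, the 4 brightest, the 2 dimmest and the most variable member. Predicted genes, microRNAs and small RNAs were counted but not named, except where stated. Of 191 genes named in the text, 35 lie outside this rule and were chosen after their values were seen. The members and lists were chosen with earlier results of these data known. Alternatives were medians over probe sets, lungs or list genes, each probe set as its own entry, a floor, a second quantile normalization, other gene sets and each lung left out.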

Additional observations from a re-analysis of the deposited data

Results flagged for a closer look

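Among 191 genes named in the text and 33 gene lists, 18 genes and 1 list had 1 lung far from the other 4, by a gap over 0.71 of the range of the 5 lungs. Chance alone flags about 1 in 20 such groups, and 860 of 15032 genes above the floor (5.72%) had such a lung. Genes chosen for their spread between these lungs are among the 191, so their count cannot be read against either share. No cause of these values was tested. Lung 1 was apart for the sex-linked genes: Xist at 11.21, Kdm6a at 10.56 and Kdm5c at 10.03 were high, and Uty at 4.39, Eif2s3y at 4.75 and Kdm5d at 5.01 were low. The sex-linked list deviated by -0.76 in that lung, against 0.16 to 0.23 in the others. Spcs2, of signal peptidase, was also highest in lung 1, at 11.58 against 11.55, a very small difference. Lung 2 was low for Ccn2 at 9.55 and high for the cardiac myosin gene Myh6 at 9.50. Lung 3 was low for CYTB at 13.06 and for Lamp3 at 11.44, where the others read 11.64 to 11.67, and high for Nppa at 8.02. Lung 4 was low for Top2a at 8.15 and Ccnb2 at 8.91 and high for Eif4a1 at 12.92. Lung 5 was low for the neutrophil genes Retnlg at 7.14, S100a8 at 7.64 and Stfa2l1 at 8.0.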

How the results depend on the processing

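With each probe set as its own entry, 178 entries in place of 111 genes had a level of at least 12, and 15 of the 25 brightest genes stayed among the 25 brightest. Counting only genes above the median level, 18 in place of 44 had an SD of at least 0.5, and 40 did without the sex-linked list, an alternative chosen after seeing the data. The club list deviated by 0.0313 in lung 4 as a median over its genes, in place of 0.146 as a mean. With each lung left out in turn, 109 to 111 genes had a level of at least 12, 42 to 65 an SD of at least 0.5, and 16 to 22 of the 25 largest SDs stayed among the 25 largest, with the lowest count without lung 5. The proliferation list then deviated by -0.47 to -0.39 in lung 4 and by 0.21 to 0.35 in lung 2. The first component then held 50.9% to 56.8% of the variance. With 1 lung fewer there is 1 component fewer, so this share tends to rise by construction. Of 191 gene levels, 176 moved by less than 1 SD with the median over a gene's probe sets and 15 by more, among them Cyp2f2 to 9.23, Rpl29 to 10.27, Spcs2 to 9.97, Ndrg1 to 8.43, Ccn2 to 8.30 and Rtkn2 to 10.08. All 191 moved by less than 1 SD after a second quantile normalization and with each lung left out. Leaving out 1 of 5 lungs cannot move a mean by 1 SD, so of these only the normalization could have shown a change. No paired analysis was possible because 1 group was described and no groups were compared.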

Other observations

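MicroRNA precursors were among the variable genes that the naming rule left unnamed, and those named here were picked with their values in view. Of 83 precursors above the median level, 9 were among the variable genes, which were 176 of all 8959 genes above that level. Their probe sets lie in the precursor's gene and do not measure the mature microRNA. Mir181b-1 read 7.37, 7.55, 7.08, 8.71 and 9.24 in lungs 1 to 5 and Mir15a 9.98, 9.89, 9.87, 10.79 and 10.46, both high in lungs 4 and 5. Mir493, from an imprinted cluster, read 9.78, 9.35, 9.30, 8.86 and 8.41, lowest in lungs 4 and 5. Mir143 and Mir145a, a neighbouring pair known from smooth muscle, read 9.23, 9.11, 8.91, 8.16 and 8.61 and 8.40, 8.75, 8.37, 7.21 and 7.92, with lung 4 lowest. The mature sequences of the first 3 are given from RefSeq (GRCm38.p6), with the seed, bases 2 to 8, in capitals. The listed arms share no seed.

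miR-181b-5p: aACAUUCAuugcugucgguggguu

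miR-181b-1-3p: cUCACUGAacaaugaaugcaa

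miR-493-5p: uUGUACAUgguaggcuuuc

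miR-493-3p: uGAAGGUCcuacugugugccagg

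miR-15a-5p: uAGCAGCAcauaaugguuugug

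miR-15a-3p: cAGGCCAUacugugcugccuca

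Further single genes with the division of lungs 4 and 5 from the rest were likewise picked with their values in view. Errfi1, an inhibitor of EGF receptor signalling, read 11.72, 11.81, 11.63, 11.15 and 10.91, and Lpin1, a phosphatidate phosphatase gene, 9.93, 9.99, 9.80, 9.44 and 9.09. Cirbp, a cold-inducible RNA-binding protein gene, read 8.43, 8.48, 8.58, 8.03 and 7.87. The ribosomal protein gene Rps3a1 read 10.83, 10.86, 10.75, 9.97 and 10.04, whereas the ribosomal protein list as a whole deviated by -0.028 in lung 4 and 0.010 in lung 5. A probe set shared by Ankrd37, a gene known to respond to low oxygen, and Lrp2bp read 7.75, 7.73, 7.58, 8.81 and 8.99, high in lungs 4 and 5.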
